A study of Mus musculus with 6 samples.

Results

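The nuclear pore and nuclear transport genes examined here were 54 genes chosen by name, the nucleoporins, importins, exportins and Ran cycle genes, among 25690 gene symbols with a transcript in the tables. They comprised 27 nucleoporins, 23 transport receptors and 4 genes of the Ran cycle. Their choice used no measured value, although results of these data were already known. All 54 passed the filter on low counts that left 15474 genes for testing.

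RNA had been sequenced from CD27SP NK cells (NK1.1+CD27+CD11b-), the immature end of NK cell maturation, sorted from mouse BM with 3 libraries of *Ncr1cre Myc* wt/wt and 3 of *Ncr1cre Myc* fl/fl, numbered 1, 2 and 4 in each genotype. Both genotypes carried Cre in the *Ncr1* gene, which encodes the NK cell receptor NKp46, on a C57BL/6 background, so they differed in the floxed *Myc* alleles and not in Cre. Deletion begins only once a cell expresses *Ncr1*. The study matched mice for sex and age, and the labels do not give the age of each mouse or say whether a library came from 1 mouse. If the libraries of a genotype did not come from separate mice, the p-values measure only the spread between these samples, which may be technical.

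The nuclear pore is a ring-shaped channel through the nuclear envelope, built from several copies of each nucleoporin. Importins carry proteins with a nuclear localization signal inwards and exportins carry their cargo outwards, and both depend on the small GTPase Ran, which is loaded with GTP in the nucleus by the exchange factor RCC1 and discharged in the cytoplasm with the help of RanGAP1 and RanBP1. Growing and dividing cells use this route to import ribosomal proteins and histones and to export ribosomal subunits, and Ran and importins also act in spindle assembly during mitosis.

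Library totals lay between 54550907 and 64962491 estimated counts in 5 libraries, whereas wt/wt library 1 held 8101219. *Myc* was measured at 200.5, 183 and 164 CPM (counts scaled to a common library total, TMM-normalized) in wt/wt libraries 1, 2 and 4 and at 61.5, 64.6 and 76.5 CPM in fl/fl libraries 1, 2 and 4, a log2 fold change of -1.44 ± 0.15 (SE, n = 3 per genotype; edgeR adjusted p = 0.00189). All 10 NK cell markers were detected and none passed the test (0 of 10 at an edgeR adjusted p below 0.05), and their summed level was 11393 to 12031 CPM in wt/wt and 13300 to 13619 CPM in fl/fl (marker sums are without TMM factors). Markers of other cells differed between the genotypes. The summed level of 8 basophil and mast cell markers was 14.3 to 19.0 CPM in wt/wt and 121 to 336 CPM in fl/fl, and all 8 rose at an edgeR adjusted p below 0.05 (4.45% of all genes rose by this rule). Markers of neutrophils and granulocyte progenitors summed to 81.2 to 141 and 540 to 890 CPM (6 of 8 tested rose), monocyte markers to 1675 to 1825 and 2070 to 2379 CPM (4 of 5), erythroid markers to 31.4 to 181 and 365 to 734 CPM (6 of 6) and plasmacytoid dendritic cell markers to 303 to 376 and 693 to 864 CPM (2 of 4). None of 6 T cell markers passed, at 242 to 514 and 278 to 356 CPM. The sort kept CD11b-negative cells, which should remove most neutrophils and monocytes, and CD3-negative cells, which should remove T cells. The part of any such cells in the results below was not tested, and in such bulk samples fewer cells of a type and less RNA per cell cannot be told apart.

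In *Ncr1cre Myc* fl/fl libraries, most Ran cycle genes and a subset of import receptors fell. At an edgeR adjusted p below 0.05, 9 of the 54 genes fell in fl/fl (3.38% of all genes tested fell by the same rule) and 0 rose (4.45% of all genes). The 9 were *Ran*, *Ranbp1*, *Rcc1*, *Kpna2*, *Kpnb1*, *Tnpo1*, *Ipo4*, *Ipo5* and *Nup43*. By role they were 3 of 4 Ran cycle genes, 4 of 11 import receptors of the importin beta family, 1 of 5 importin alpha genes and 1 of 27 nucleoporins, with 0 of 7 exportins. The counts for nucleoporins and exportins were near the share of all genes. By median log2 fold change the 23 transport receptors (-0.12) did not lie below the nucleoporins (-0.21). Under stricter limits, an adjusted p under 0.01 together with a log2 fold change of 0.5 or more in either direction, edgeR called 0 genes lower (0.872% of all genes) and 0 higher (1.28%). At an unadjusted p below 0.05, 13 were lower (10.2% of all genes) and 0 higher (12.4%). The study's methods take the largest adjusted p of edgeR, DESeq2 and limma-trend, and with these limits that gave 0 genes lower (0.504% of all genes) and 0 higher (0.931%). Taken singly, DESeq2 called the same 9 genes lower (3.47% of all genes), limma-trend called 0 (0.504%), and edgeR without the replicate block called 3, *Kpnb1*, *Ran* and *Tnpo1* (1.19%).

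The log2 fold changes of the 54 genes ran from -1.02 to 0.41 with a median of -0.20, against 0.01 over all genes tested. Of the 54, 41 were below 0, against 7512 of the 15474 genes tested. For 21 genes every fl/fl library lay below every wt/wt library (15.1% of all genes), and for 1 gene, *Nup98*, every fl/fl library lay above (16.2% of all genes). The 45 genes that missed an adjusted p of 0.05 had a median of -0.14. The 54 genes had a median level of 34.7 TPM (abundance scaled by transcript length and to a common total), against 10.6 TPM over all genes tested.

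**Figure D1:**
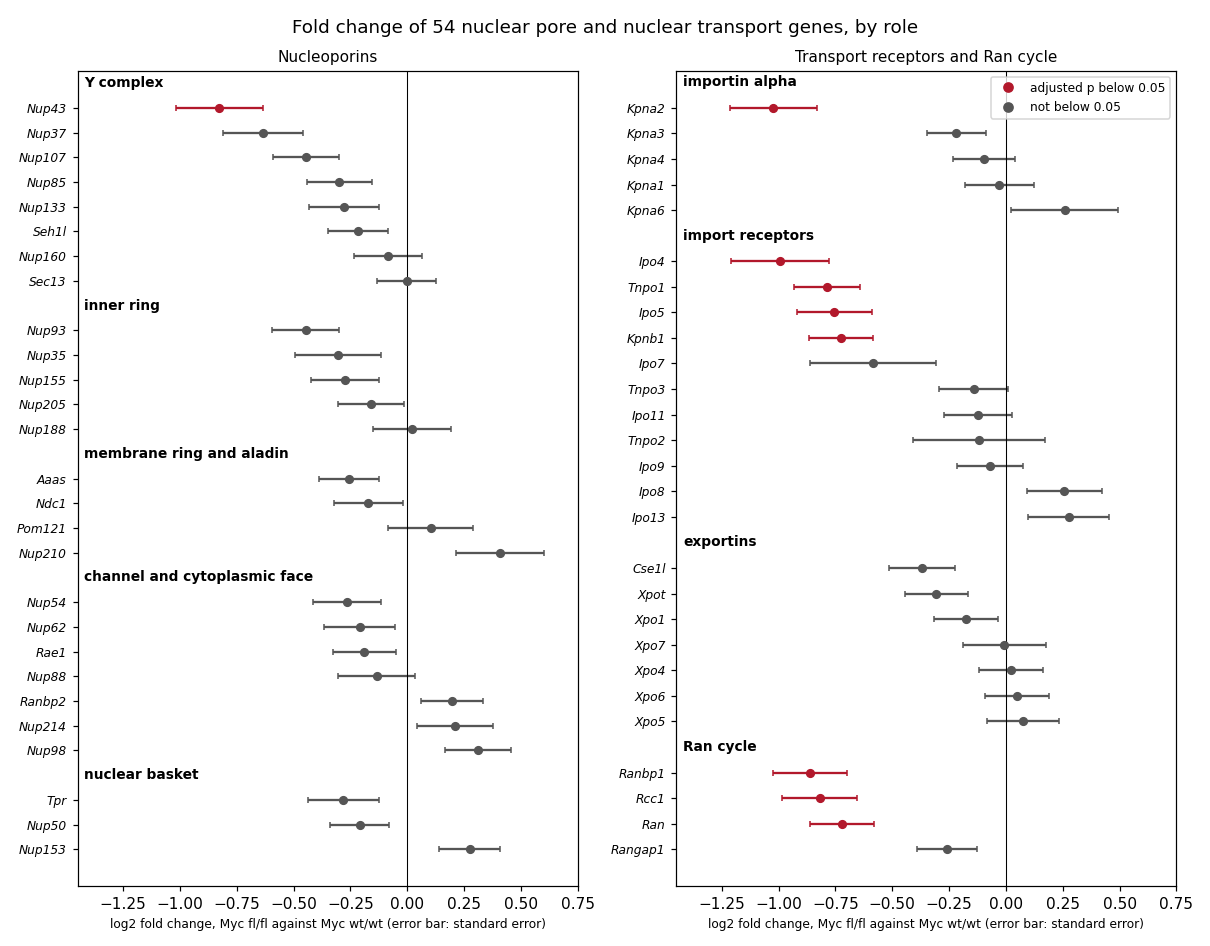
Log2 fold change (x axis, fl/fl against wt/wt, from edgeR; bars, standard error) of each of the 54 genes, grouped by role (y axis), with red points for an edgeR adjusted p below 0.05. Of the 9 red points 8 are transport receptors or Ran cycle genes and 1, *Nup43*, is a nucleoporin, and the exportins scatter around 0 with a median of -0.01.

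MYC with its partner MAX binds the E-box CACGTG, a palindrome that reads the same on both strands, and windows from 250 bases before to 50 after the RefSeq start of each gene (GRCm38.p6) were searched for these letters. A window was found for 44 of the 54 genes, and 9 of the 44 (20.5%) held the motif. The share was 11% of 10886 tested genes with a window and 8.09% of all 27025 genes with a window. The 9 were *Ran*, *Ipo4*, *Ipo7*, *Tnpo2*, *Xpot*, *Nup54*, *Nup93*, *Nup188* and *Ranbp2*. Of the 9 genes that fell, 8 had a window and 2 held the motif, and of the other members 7 of 36 held it. The windows of the 2 lower genes with a match are shown on the strand of the gene, with the motif in capitals. It begins at base 133 of the 300 in *Ran* (chr5:129019906-129020205, plus strand), before the start, and at base 265 in *Ipo4* (chr14:55635635-55635934, minus strand), just after it. A match in letters is a description and not a measured binding site.
Ran: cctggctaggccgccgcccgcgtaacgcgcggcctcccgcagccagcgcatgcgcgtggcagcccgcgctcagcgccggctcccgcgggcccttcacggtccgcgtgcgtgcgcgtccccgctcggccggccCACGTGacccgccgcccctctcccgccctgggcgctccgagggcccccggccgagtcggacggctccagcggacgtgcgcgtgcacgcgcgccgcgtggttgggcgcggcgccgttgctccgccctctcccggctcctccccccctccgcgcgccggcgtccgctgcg
Ipo4: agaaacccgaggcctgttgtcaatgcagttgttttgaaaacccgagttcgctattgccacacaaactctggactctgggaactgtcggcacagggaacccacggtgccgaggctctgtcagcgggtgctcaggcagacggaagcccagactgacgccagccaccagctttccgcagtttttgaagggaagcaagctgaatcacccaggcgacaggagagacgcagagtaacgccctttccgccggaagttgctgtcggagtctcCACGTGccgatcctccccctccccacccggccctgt

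The Ran cycle stood lowest of the 9 roles by its median, -0.77 (gene positions are those of GENCODE M21 on GRCm38). *Ranbp1* and *Ran* were also the most abundant of all 54 genes per transcript length, at means over the 6 libraries of 361 and 335 TPM. *Ran* (chr5:129020069-129024323, plus strand), the GTPase that gives transport its direction, was measured at 828, 657 and 699 CPM in wt/wt libraries 1, 2 and 4 and at 433, 449 and 436 CPM in fl/fl libraries 1, 2 and 4. The fl/fl libraries lay close together (439 ± 8.17 CPM, SD, n = 3), well below the lowest wt/wt library, at 60.3% of the wt/wt mean (728 ± 89.1 CPM). Its log2 fold change was -0.72 ± 0.14 (SE; edgeR adjusted p = 0.0149).

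*Ranbp1* (chr16:18239784-18248732, minus strand), whose product binds RanGTP and helps RanGAP1 discharge it, was measured at 389, 225 and 236 CPM in wt/wt and at 158, 147 and 148 CPM in fl/fl. The genotypes did not overlap, although wt/wt library 1 stood apart from the other 2 wt/wt libraries. Its log2 fold change was -0.86 ± 0.16 (edgeR adjusted p = 0.0140). *Rcc1* (chr4:132331919-132353605, minus strand), the chromatin-bound exchange factor that loads Ran with GTP, was measured at 73.1, 82.1 and 73.2 CPM in wt/wt and at 39.5, 37.2 and 54.3 CPM in fl/fl. Here it was fl/fl library 4 that came nearest to the other genotype. Its log2 fold change was -0.82 ± 0.16 (edgeR adjusted p = 0.0171). *Rangap1*, the activator of the Ran GTPase, missed the test: it was measured at 164, 166 and 167 CPM in wt/wt and at 133, 133 and 149 CPM in fl/fl, without overlap, with a log2 fold change of -0.26 ± 0.13 (edgeR adjusted p = 0.279). All 4 Ran cycle genes had every fl/fl library below every wt/wt library (15.1% of all genes). Exons of *Ranbp1* overlap those of *Trmt2a* on the opposite strand by 54 bases, 3.24% of its exon length, and those of *Gm49776* on the same strand by 16.9%. Exons of *Rcc1* overlap *Snhg3* on the same strand by 3.51%, and exons of *Kpnb1* overlap *Gm11583* on the opposite strand by 7.07%. How many reads these overlaps share was not measured.

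Among the importin alpha genes, the adaptors that bind the classical nuclear localization signal, only *Kpna2* (chr11:106988629-106999541, minus strand) passed the test. It was measured at 411, 269 and 244 CPM in wt/wt and at 140.4, 133 and 172 CPM in fl/fl, 48.2% of the wt/wt mean. The genotypes did not overlap, and the wt/wt spread (308 ± 89.7 CPM) came mostly from library 1. Its log2 fold change of -1.02 ± 0.19 (edgeR adjusted p = 0.0126) had the largest size among the 54 genes in this fit. The other 4 importin alpha genes had log2 fold changes from -0.22 (*Kpna3*) to 0.26 (*Kpna6*), with edgeR adjusted p-values of at least 0.362. *Kpna2* shares 71.3% of its 31-base stretches with *Gm10184*, which held at most 1.47% of the counts of the pair in any library, and 11.5% with *Med20*, which held up to 31.2%. The sum of the 3 genes was 473, 337 and 302 CPM in wt/wt and 199, 194 and 228 CPM in fl/fl. *Med20* alone had means of 61.4 CPM in wt/wt and 57.1 CPM in fl/fl, so this sum adds little to the values of *Kpna2*.

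Of the 11 import receptors 4 fell. *Kpnb1* (chr11:97159714-97187881, minus strand) encodes importin beta, which carries importin alpha with its cargo through the pore. It was measured at 105, 93.1 and 102 CPM in wt/wt and at 54.4, 60.4 and 67.2 CPM in fl/fl, with a log2 fold change of -0.72 ± 0.14 (edgeR adjusted p = 0.0149). *Tnpo1* (chr13:98839019-98926384, minus strand), transportin, which imports RNA-binding proteins such as hnRNP A1, was measured at 68.9, 75.1 and 69.1 CPM in wt/wt and at 44.8, 37.1 and 41.9 CPM in fl/fl, with a log2 fold change of -0.79 ± 0.14 (edgeR adjusted p = 0.0118), the smallest adjusted p among the 54 genes. For both genes the libraries of a genotype lay close together and the genotypes were well apart.

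*Ipo5* (chr14:120911224-120947999, plus strand), an importer of histones and ribosomal proteins, was measured at 125, 81.8 and 81.8 CPM in wt/wt and at 54.6, 56.3 and 56.4 CPM in fl/fl, with a log2 fold change of -0.75 ± 0.16 (edgeR adjusted p = 0.0243). As for *Ranbp1* and *Kpna2*, wt/wt library 1 was the high one. *Ipo4* (chr14:55625400-55635957, minus strand), an importer of histones with their chaperones, was measured at 31.7, 32.9 and 27.1 CPM in wt/wt and at 11, 16.5 and 19.2 CPM in fl/fl, with a log2 fold change of -0.995 ± 0.22 (edgeR adjusted p = 0.0235). Its counts are uncertain because of shared sequence: 57.7% of its 31-base stretches also occur in *Gm49378*, a gene overlapping it on the same strand, and *Gm49378* held up to 44.6% of the counts of the pair in a library. The sum of both genes was 33.5, 40.5 and 36.9 CPM in wt/wt and 19.9, 23.7 and 26.6 CPM in fl/fl, without overlap. Between 15.2% and 47.1% of the *Ipo4* counts lay on protein-coding transcripts, against 92.5% to 96.7% for *Tnpo1*.

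The 7 import receptors that missed the test had log2 fold changes from -0.59 (*Ipo7*) to 0.28 (*Ipo13*). None of them had genotypes without overlap (15.1% of all genes had fl/fl lower in this way and 16.2% higher). *Ipo7*, another importer of ribosomal proteins and histones, was measured at 26.5, 33.3 and 24.9 CPM in wt/wt and at 29.5, 12.0 and 18.7 CPM in fl/fl, with an edgeR adjusted p of 0.249. Its fl/fl libraries were spread across and below the wt/wt range. *Tnpo3*, which imports SR splicing factors and had the highest TPM of the import receptors, was measured at 173, 146 and 126 CPM in wt/wt and at 125, 135 and 140.2 CPM in fl/fl. The genotypes overlapped, at a log2 fold change of -0.14 ± 0.15 (edgeR adjusted p = 0.655).

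**Figure D2:**
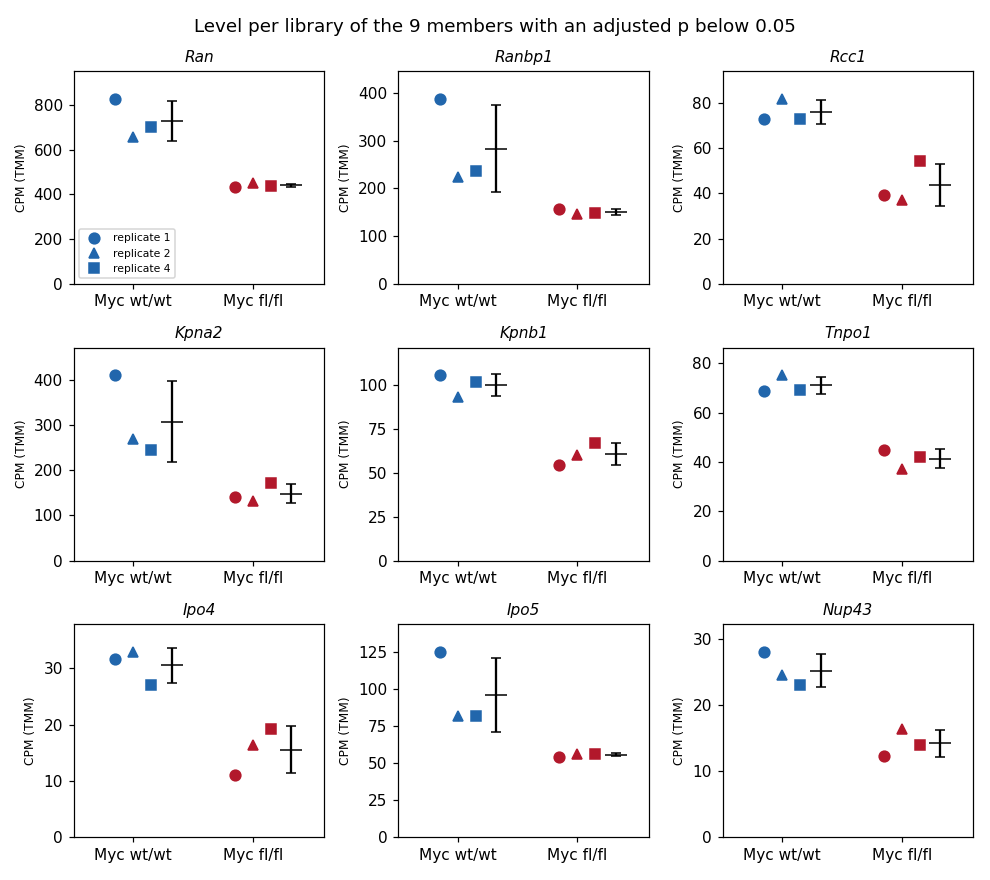
Level in CPM (y axis, TMM-normalized, from 0) of the 9 genes with an edgeR adjusted p below 0.05 in each library of wt/wt (blue) and fl/fl (red); marker shapes give the library number, and the bar shows mean and SD of 3 libraries. No gene has overlapping genotypes, and wt/wt library 1 (circle) is the highest wt/wt library for 6 of the 9.

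Exportins had a median log2 fold change of -0.01, and their range ran from -0.37 to 0.07. *Cse1l*, which returns importin alpha to the cytoplasm, was the exportin with the smallest p: it was measured at 198, 154 and 133 CPM in wt/wt and at 125, 124 and 121 CPM in fl/fl, with a log2 fold change of -0.37 ± 0.15 (edgeR adjusted p = 0.170). Its genotypes did not overlap, as was the case for *Xpot*, the tRNA exporter, at -0.31 ± 0.14 (edgeR adjusted p = 0.225). These were 2 of the 7 exportins, against 15.1% of all genes with fl/fl lower in this way. *Xpo6*, an exporter of actin with profilin and the exportin of highest TPM, was measured at 165, 154 and 131 CPM in wt/wt and at 159, 144 and 161 CPM in fl/fl, interleaved between the genotypes (log2 fold change 0.05 ± 0.14; edgeR adjusted p = 0.898). *Xpo1*, the receptor for leucine-rich export signals, was at 203, 191 and 170.3 CPM in wt/wt and at 184, 144 and 172 CPM in fl/fl (log2 fold change -0.18 ± 0.14; edgeR adjusted p = 0.519).

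The 27 nucleoporins had a median of -0.21 on the log2 scale, and 20 lay below 0 (7512 of all 15474 genes). In the Y complex, the scaffold of the outer rings, all 8 genes had a log2 fold change below 0 (median -0.29) and 1 passed the test. *Nup43* (chr10:7667503-7678881, plus strand), a peripheral Y complex subunit, was measured at 28.1, 24.7 and 23.1 CPM in wt/wt and at 12.3, 16.4 and 14 CPM in fl/fl. All fl/fl libraries lay below all wt/wt libraries, with a log2 fold change of -0.83 ± 0.19 (edgeR adjusted p = 0.0310). In 5 of the 8 genes every fl/fl library lay below every wt/wt library (15.1% of all genes). Besides *Nup43* these were *Nup37* at -0.63 ± 0.17 (edgeR adjusted p = 0.0567) and *Nup107* at -0.44 ± 0.15 (0.0974). The others were *Nup85* at -0.30 ± 0.14 (0.249) and *Seh1l* at -0.22 ± 0.13 (0.378). *Sec13*, which the pore shares with the COPII coat of secretory vesicles, was the most abundant nucleoporin at 201 TPM. It was measured at 162, 178 and 172 CPM in wt/wt and at 155, 185 and 172 CPM in fl/fl, with a log2 fold change of -0.0025 ± 0.13 (edgeR adjusted p = 0.994).

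In the other nucleoporin groups no gene passed the test. *Nup93*, the organizer of the inner ring, was measured at 131, 119 and 108 CPM in wt/wt and at 78.7, 89.7 and 94.0 CPM in fl/fl. It was the only one of 5 inner ring genes without overlap (15.1% of all genes had fl/fl lower in this way). Its log2 fold change was -0.45 ± 0.15 (edgeR adjusted p = 0.0998). *Rae1*, an mRNA export factor at the cytoplasmic face, was measured at 145, 125 and 119 CPM in wt/wt and at 107, 119 and 113 CPM in fl/fl (log2 fold change -0.19 ± 0.14; edgeR adjusted p = 0.481). *Tpr*, the filament of the nuclear basket, was measured at 287, 206 and 260.0 CPM in wt/wt and at 197, 221 and 197 CPM in fl/fl (log2 fold change -0.28 ± 0.16; edgeR adjusted p = 0.333), with fl/fl library 2 inside the wt/wt range.

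Several nucleoporins had values above 0, none of which passed. *Nup210*, a transmembrane nucleoporin, was measured at 359, 342 and 289 CPM in wt/wt and at 625, 296 and 449.9 CPM in fl/fl. Fl/fl libraries 1 and 4 were above all wt/wt libraries and library 2 was within their range, at a log2 fold change of 0.41 ± 0.19 (edgeR adjusted p = 0.248). *Nup98*, which has FG repeats and binds RAE1, was measured at 51.7, 51.3 and 48.8 CPM in wt/wt and at 75.2, 54.2 and 61.2 CPM in fl/fl (log2 fold change 0.31 ± 0.15; edgeR adjusted p = 0.243). *Nup153*, a basket nucleoporin, was measured at 88.7, 74.0 and 75.0 CPM in wt/wt and at 108, 81.3 and 98.9 CPM in fl/fl (log2 fold change 0.28 ± 0.13; edgeR adjusted p = 0.262). Of the 54 genes, 3 (*Nup98*, *Nup153* and *Ranbp2*) were higher in fl/fl at every library number, against 24.2% of all genes.

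**Figure D3:**
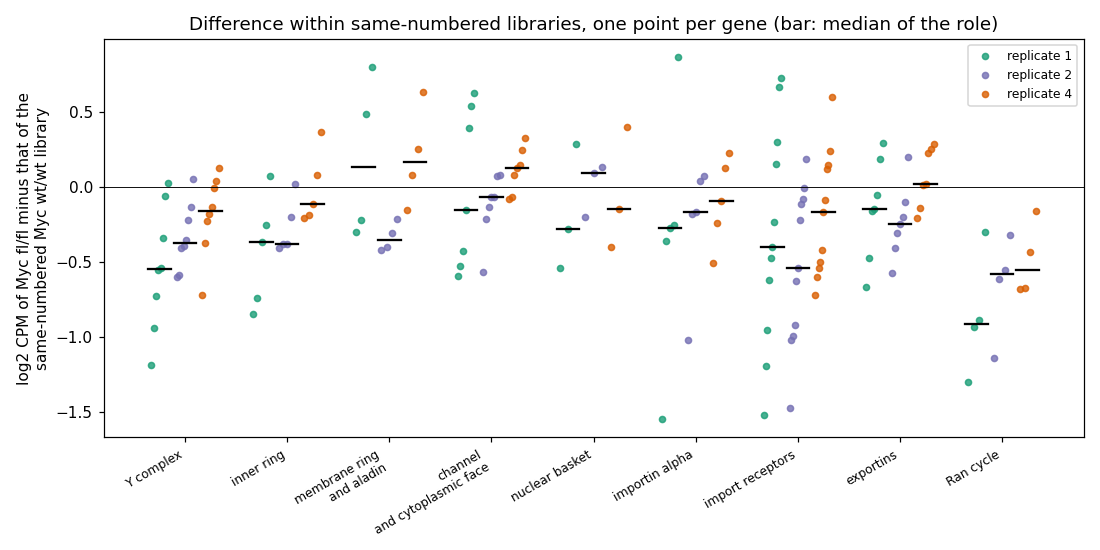
Log2 CPM of the fl/fl library minus that of the wt/wt library of the same number (y axis), for every gene by role (x axis); colours give the number and bars the median of the role. The medians of all 54 genes were -0.30, -0.23 and -0.08 for numbers 1, 2 and 4, and the Ran cycle lay below 0 at each number.

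The size of the differences varied with the library number. The median over the 54 genes was -0.30 for the libraries numbered 1, -0.23 for those numbered 2 and -0.08 for those numbered 4, and 23 genes were lower in fl/fl at all 3 numbers (21.2% of all genes). Wt/wt library 1, the shallow one, was the highest of the 3 wt/wt libraries for 39 of the 54 genes (72.2%), against 39.2% of all genes tested. Without the libraries numbered 1 the median over the 54 genes was -0.15, and *Kpna2* and *Tnpo1* remained below an edgeR adjusted p of 0.05, at 0.0498 and 0.0290 (1.69% of all genes fell by that rule). The 7 others had log2 fold changes from -0.79 (*Rcc1*) to -0.54 (*Ipo5*) there, against -0.995 (*Ipo4*) to -0.72 (*Ran*) in the main test. Their edgeR adjusted p-values ran from 0.0507 (*Ranbp1*) to 0.120 (*Nup43*) with fewer samples. With wt/wt library 1 alone left out and no block, which was chosen after seeing the data, 9 genes were below 0.05 (3.87% of all genes) and the median was -0.12. With every library thinned to the depth of wt/wt library 1, 8 genes were below 0.05 (4.48% of all genes), all but *Nup43*.

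**Figure D4:**
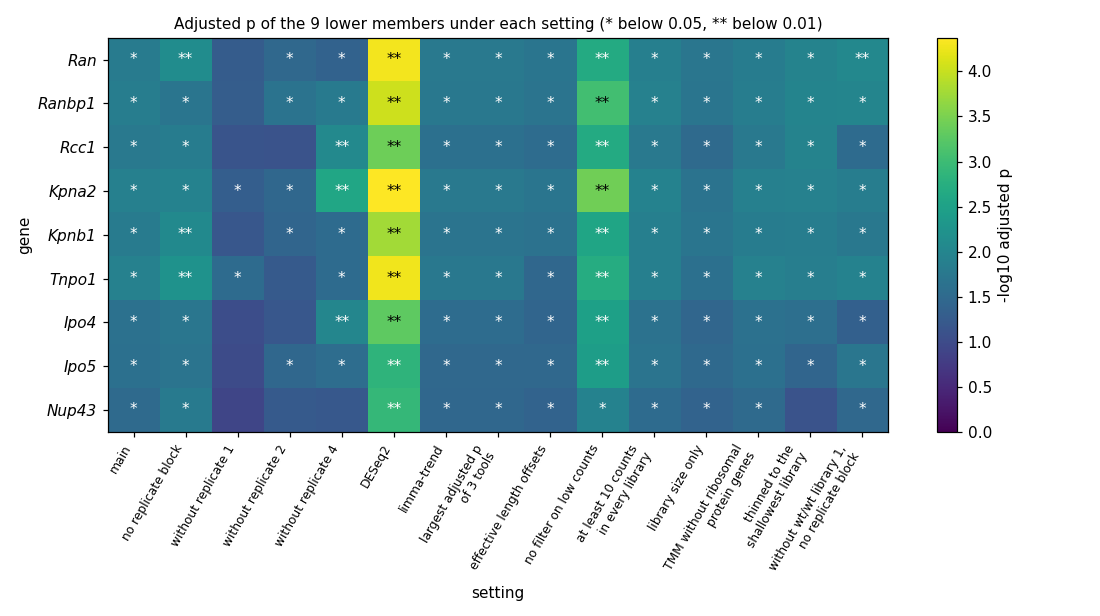
Adjusted p on a -log10 scale (colour) of the 9 lower genes (y axis) under the main edgeR test and 14 alternatives (x axis); 1 star marks a value below 0.05 and a pair of stars a value below 0.01. *Kpna2* was below 0.05 in all 14 alternatives and *Nup43* in 10.

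Genes of proliferation and of ribosome production also fell. *Mki67*, a marker of cycling cells, had a log2 fold change of -1.26 ± 0.16 (edgeR adjusted p = 0.00348). Of 30 genes of G2/M and mitosis 22 fell at an edgeR adjusted p below 0.05 (3.38% of all genes) and 0 rose (4.45%), with a median of -0.74. Of 40 nucleolar genes of ribosome biogenesis 22 fell and 0 rose by the same rule, with a median of -0.58. *Ran*, *Rcc1* and *Kpna2* also serve the mitotic spindle, and what part of the difference goes with the share of dividing cells was not tested.

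A second list of 30 genes of the same pathway that are not among the 54 covered further nucleoporins, mRNA export factors and transport cofactors, and 29 of them passed the filter on low counts. By edgeR, 0 fell (3.38% of all genes) and 0 rose (4.45%) at an adjusted p below 0.05, with 4 lower (10.2% of all genes) and 0 higher (12.4%) at an unadjusted p below 0.05, and their median log2 fold change was -0.15. *Ddx39b*, an mRNA export helicase, had the smallest adjusted p, 0.0842, at a log2 fold change of -0.53. *Nutf2*, which returns Ran to the nucleus, could not be read on its own, since wt/wt library 1 assigned 6.89 CPM to *Nutf2* and 412 CPM to its copy *Nutf2-ps1*, against 55.9 and 111 CPM in wt/wt library 2. The sum of both was 419, 167 and 169 CPM in wt/wt and 103, 109 and 107 CPM in fl/fl, without overlap.

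Over the 6 libraries the order of levels per transcript length ran from *Ranbp1* (361 TPM), *Ran* (335), *Sec13* (201), *Kpna2* (158), *Tpr* (136) and *Rae1* (127) down to *Nup155* (6.62), *Ipo7* (6.39) and *Tnpo2* (4.70). *Ranbp1* and *Ran* did not differ beyond their spread in either genotype, at 458 ± 123 and 403 ± 32.9 TPM in wt/wt and 263 ± 9.96 and 266 ± 10.4 TPM in fl/fl (SD, n = 3). *Kpna2* stood at 208 ± 53.5 TPM in wt/wt, within its spread of *Sec13* (193 ± 18.6 TPM), and at 109 ± 16.2 TPM in fl/fl against 209 ± 13.2 TPM for *Sec13*. Over the 54 genes the median share of counts on protein-coding transcripts was 94.8% to 96.5% in the 6 libraries. In 31 genes it was at least 90% in every library, and in 7 (*Ipo4*, *Ipo5*, *Ipo9*, *Ipo11*, *Tnpo3*, *Ndc1* and *Nup214*) it was below 60% in at least 1 library.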

How the data were processed

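RNA from 6 sorted samples had been made into poly(A)-selected SMART-Seq v4 libraries and sequenced single end by the authors. The authors deposited, per transcript, an estimated count (not normalized), a TPM value and an effective length, with 100583 transcripts per table. The methods and labels name Salmon and GRCh38, whereas the columns have kallisto's names and the identifiers are those of mouse; versions are not given in the sources used here.

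Estimated counts were summed by symbol through GENCODE M21 (GRCm38; 100239 transcripts matched, the rest holding 0.129% to 0.169% of counts) and rounded. Genes kept by filterByExpr were TMM-normalized and tested with edgeR 4.0.16 (R 4.3.3), quasi-likelihood, with genotype and library number as a block, because the study calls its analysis paired. P-values were adjusted by Benjamini-Hochberg over all 15474 genes. Alternatives were DESeq2 1.42.0, limma-trend 3.58.1, the largest adjusted p of the 3 tools, no block, each library number left out, effective length offsets, other filters and normalizations, and thinning to the shallowest library. The code was tested on simulated data. Fold changes are fl/fl against wt/wt; errors are SE for fold changes and SD for levels. Totals of 8101219 to 64962491 counts bound the precision for weakly expressed genes, above all in wt/wt library 1. Shared sequence was counted as 31-base stretches, listed from 10%. Replicates of a genotype differed beyond counting noise (chi-square per degree of freedom 40.0 to 101), so all are distinct libraries.

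The 54 members and all lists were chosen with earlier results of these data known. Values in every library are given for members called under either rule and, in each role, for those with the smallest adjusted p and the highest mean TPM; *Rangap1*, *Ipo7*, *Xpo1*, *Nutf2* and *Ddx39b* and the members given by their fold change alone were named after their values were seen. Promoters are from RefSeq.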

Additional observations from a re-analysis of the deposited data

How the results depend on the processing

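Shares in brackets are those of all genes tested under the same setting. The count of members lower under the stricter limits, 0 in the main test (0.872%), was 3 without the replicate block (1.19%), 9 with DESeq2 (3.47%) and 8 when genes of low count were kept (1.83%), and ranged from 0 to 3 when the libraries of 1 number were left out. The 3 were *Ipo4*, *Kpna2* and *Rcc1*, without number 4 (0.735%). Without wt/wt library 1 and without the block, a setting added after seeing the data, it was 1 (*Ran*; 0.814%). The count of members lower at an adjusted p below 0.05, 9 in the main test, ranged from 2 to 8 when the libraries of 1 number were left out, with *Kpna2* and *Tnpo1* left without number 1 (1.69%), 5 genes without number 2 (*Ipo5*, *Kpna2*, *Kpnb1*, *Ran* and *Ranbp1*; 1.89%) and 8 without number 4 (2.61%). It was 8 to 10 in the other alternatives run (2.73% to 5.74%). The count of members higher at 0.05 ranged from 0 to 1 in the same leave-outs, with *Nup210* passing without number 2 (3.02%), at a log2 fold change of 0.73. These leave-outs use fewer samples, and the share of all genes called lower at 0.05 was 3.38% in the main test. The median over the 54 genes stayed between -0.30 and -0.12. For the alternatives that keep all samples the cause of a change was not tested.

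Without the block 9 members were below 0.05 (4.47%). The library numbers were not shown to pair the mice: the correlations of deviations between same-numbered libraries were -0.01, -0.02 and 0.05 for numbers 1, 2 and 4, under the limit of 0.1 used here, and wt/wt library 1 correlated best with fl/fl library 2 (0.053).

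Some log2 fold changes near 0 reversed. *Sec13* was 0.040 with effective length offsets, 0.011 with no filter, 0.024 with at least 10 counts in every library, 0.011 with library size only and 0.014 after thinning. With the libraries of 1 number left out, *Sec13* ranged from -0.022 to 0.026 (above 0 without number 1), *Tnpo3* from -0.31 to 0.019 (above 0 without number 1) and *Xpo6* from -0.095 to 0.13 (below 0 without number 4). None of the 9 lower genes changed direction in any of the 14 alternatives. Of 266 combinations of a named member and an alternative, 244 kept direction and side of the threshold, 13 lost the call, 1 gained it and 8 reversed. Only the 9 lower genes could lose a call, and most other combinations are of genes that were never called. Each of the 9 was below 0.05 in 10 (*Nup43*) to 14 (*Kpna2*) of the 14 alternatives. With TPM in place of counts the median protein-coding share was 87.4%. Wt/wt library 1 holds the fewest counts, which widens the error of weakly expressed genes there.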
